A study of Brachypodium distachyon with 35 samples.

Results

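BdbZIP4 is 1 of 96 genes for basic leucine zipper (bZIP) transcription factors measured in Brachypodium distachyon, a small grass used as a model for cereals. It was chosen by its –ΔΔCT values in these data, which showed a level below the control under heat, Mn, Cd and Pb and above it under salicylic acid (SA) and the cytokinin 6-benzyladenine (6-BA). Values in those treatments are therefore a description of why the gene was chosen and not evidence for a response. Both times of these treatments and the levels of their controls CK1 and CK3 entered the choice. The levels in the other treatments and in the organs did not, although most of their changes are taken against the same controls.

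Transcript levels came from quantitative real-time PCR (qPCR) of seedlings of the inbred line Bd21-3 and of organs, with 1 sample per condition. No mutation or transgene is named for any sample. The samples used here were 3 untreated seedling controls named CK1, CK2 and CK3, 27 treated seedling samples and 4 organ samples. Environmental factors were cold (4 °C), heat (45 °C), H2O2 (10 mM), polyethylene glycol (PEG, 20 %) and NaCl (200 mM), each sampled after 1 h and 6 h. Heavy metals were CuSO4 (0.05 mM), ZnSO4 (0.5 mM), MnCl2 (1.0 mM), CdCl2 (0.07 mM) and PbCl2 (0.75 mM), each sampled after 6 h and 24 h. Phytohormones were SA (1 mM), 6-BA (20 µM), abscisic acid (ABA, 100 µM) and methyl jasmonate (MeJA, 100 µM), each sampled after 1 h and 6 h. Root, stem and leaf came from seedlings that the labels give as 20 days old, the age also given for the treated and control seedlings, and the early spikelet from plants of 40 days. The methods state younger plants for both. The PEG 1 h sample was left out because its column equalled that of H2O2 6 h in 97 of 97 rows. Among the measured genes none marks an organ, so the organ labels could not be checked.

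A bZIP protein has a basic region that contacts DNA and a leucine zipper through which it pairs with a second bZIP protein, so the set of partners in a cell shapes which promoters are bound. In plants this family is known for signalling by ABA, for responses to drought, salt, cold and pathogens, and for seed and flower development. In Arabidopsis the ABA-responsive bZIP factors bind promoter elements with an ACGT core, and the TGA factors, also bZIP proteins, act in SA-dependent defence. No such role is assigned to BdbZIP4 here.

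BdbZIP4 (locus bradi1g12620) lies on chromosome 1 at positions 9497384 to 9497890. The genome build of these positions is not given in the sources used here. The span of 507 bp has no intron and holds 169 codons, which matches a protein of 168 amino acids and a stop codon. It is 1 of 15 genes of the family without an intron, and 9 of the 96 have a shorter protein. No other gene of the family has the same primer pair, so its wells did not share a target with another measured gene as listed.

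The level of BdbZIP4 is given as –ΔCT, the Ct of the reference gene BdGAPD (glyceraldehyde-3-phosphate dehydrogenase, a glycolytic enzyme) minus the Ct of BdbZIP4 in the same sample. Ct, the number of PCR cycles needed to reach a set fluorescence, goes up as template goes down, so a Ct higher by 1 stands for about 0.5-fold the template, and –ΔCT is on a log2 scale. A change is –ΔΔCT, the level of a sample minus that of the control its label assigns: CK1 for environmental factors, SA, 6-BA and organs, CK2 for ABA and MeJA, and CK3 for metals and for NaCl 6 h. No replicate was available for any condition, so a single change has no test. Its error was judged from 8 pairs of genes with identical primers, whose changes gave an SD of 0.97 (log2) for the wells alone, or 0.78 without the pair BdbZIP50 and BdbZIP51. The SD of 0.97 is meant wherever the well error is named. That SD leaves out the error of BdGAPD and the differences between plants. In bulk seedlings and organs, fewer cells with the transcript and less transcript per cell cannot be told apart.

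Across the 34 samples the Ct of BdbZIP4 lay between 26.44 and 35.60 (median 31.3), and that of BdGAPD from 14.73 to 23.24. BdbZIP4 reached a Ct of 35 or more, where amplification is late and least certain, in the heat samples alone, and a Ct over 34 also in Cd 6 h, Pb 6 h and MeJA 6 h. Over the whole family 34 genes reached 35 in at least 1 sample. The level of BdbZIP4 spanned 9.96 on the log2 scale, from -17.89 in heat 1 h to -7.93 in CK3. Ordered by level, 2 of the 33 steps between neighbouring samples were larger than the well error, the step of 1.01 between Cu 6 h and Cu 24 h and the step of 1.80 between ABA 6 h and heat 6 h, and 4 were larger than 0.78. Sorting 34 samples makes neighbouring steps small, so these counts do not say how many samples differed. Both heat samples were lowest and CK3 and both Zn samples highest, on this scale and relative to the median gene, while Cu 6 h was 4th highest on this scale and 12th relative to the median gene.

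**Figure D1:**
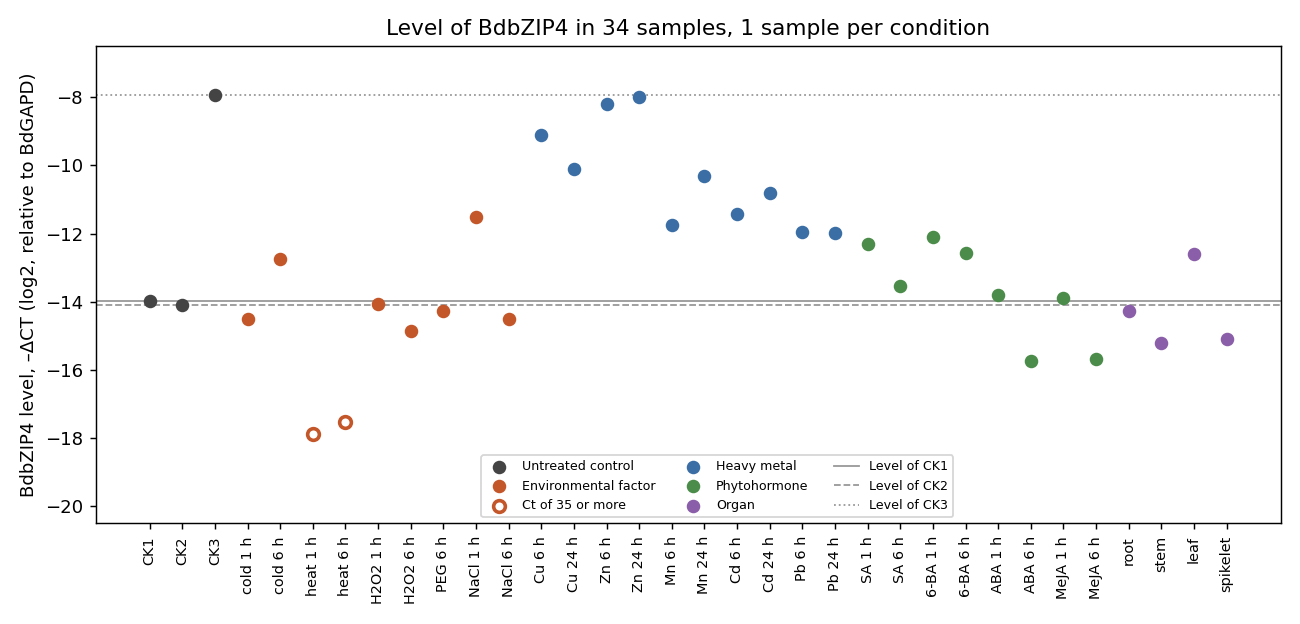
Level of BdbZIP4 (–ΔCT, log2, relative to BdGAPD) in each of the 34 samples, 1 point per sample, coloured by class, with grey lines at the levels of CK1, CK2 and CK3 and open points for a Ct of 35 or more. The 2 heat points lie lowest at -17.89 and -17.54, and the metal points lie between the lines of CK1 and CK3.

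The gap between untreated controls was larger than any change against a labelled control but that of NaCl 6 h. The level was -13.98 in CK1 (Ct 31.88, BdGAPD 17.90), -14.09 in CK2 (Ct 29.81, BdGAPD 15.72) and -7.93 in CK3 (Ct 28.01, BdGAPD 20.08). CK1 and CK2 were closer than the well error, and CK3 was higher than CK1 by 6.05. The median gene of the family was also higher in CK3 than in CK1, by 2.59, and BdbZIP4 had the 8th largest such difference of 96. Taken relative to the median gene of each sample, which needs no BdGAPD, BdbZIP4 was at -4.66 in CK1, -4.37 in CK2 and -1.59 in CK3. On the BdGAPD scale part of the gap between controls was thus shared with the median gene, and a gap of 3.07 between CK3 and CK1 was not. Without a reference gene the median gene was higher in CK3 than in CK1 by 0.41, and BdbZIP4 by 3.87. Whatever sets CK3 apart was not tested, and every change against CK3 carries it, including those of Mn, Cd and Pb by which the gene was chosen.

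Set against the range of all 3 controls, from -14.09 to -7.93, the level was below every control in 11 of the 31 treated and organ samples, above every control in 0 and within their range in 20. The samples below were 6 of 9 environmental samples, 2 of 8 hormone samples and 3 of 4 organs. The gene name of the organ values is uncertain, as given with the organs below. All 10 metal samples were within the range. Relative to the median gene 10 samples were below all controls and 2, both Zn samples, above them, and without a reference gene 10 were below, 4 of them metals, and 2 above. Against the labelled control, 6 of the 31 samples had BdbZIP4 at least 2-fold higher and 15 had it at most 0.5-fold. The share of the 96 genes called by the same thresholds differed widely between samples and is given with each below.

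Heat gave the lowest levels of the series. The level was -17.89 after 1 h (Ct 35.52) and -17.54 after 6 h (Ct 35.60), against -13.98 in CK1. The changes were -3.91 and -3.56, or 0.0665-fold and 0.0848-fold, and BdbZIP4 was the 5th lowest of 96 genes at both times. At most 0.5-fold were 37.5% of the genes at 1 h and 34.4% at 6 h, and the median gene changed by -0.53 and -0.37. BdGAPD was nearly level with CK1, at 17.63 and 18.06, so the difference was already in the raw Ct, which was higher than in CK1 by 3.64 and 3.72. Relative to the median gene the changes were -3.73 and -2.80. The higher of the heat levels was 3.45 below the lowest of the 3 controls, so its direction did not rest on the choice of control.

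Cold and H2O2 showed smaller differences, and the early and late cold samples lay on opposite sides of CK1. After cold the level was -14.52 at 1 h and -12.75 at 6 h, changes of -0.54 and 1.23. The later value, 2.35-fold of CK1, was the 13th highest of 96 genes, in a sample where 19.8% of genes passed 2-fold upward. In H2O2, a reactive oxygen species used here as an oxidative stress, the level was -14.06 at 1 h and -14.87 at 6 h, changes of -0.08 and -0.89 that are inside the well error, the latter outside the SD of 0.78. Without a reference gene the raw Ct was lower than in CK1 by 1.95 in cold 1 h and by 2.23 in H2O2 1 h. In those samples the Ct of BdGAPD was lower too, at 15.41 and 15.59 against 17.90. PEG, which lowers the water available to the roots, gave a level of -14.26 at 6 h and a change of -0.28.

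NaCl gave BdbZIP4 its highest level among environmental factors and, against its labelled control, its lowest change. The level was -11.52 at 1 h (Ct 30.98, BdGAPD 19.46) and -14.52 at 6 h (Ct 31.78, BdGAPD 17.26). At 1 h the change against CK1 was 2.46, or 5.50-fold, the 8th highest of 96, where 34.4% of genes passed 2-fold upward. Its level of -11.52 was within the range of the controls. At 6 h the change against CK3 was -6.59, the 4th lowest of 96, where 71.9% of genes were at most 0.5-fold and the median gene was at -2.02. Against CK1, the control used for 1 h, the same sample was at -0.54. The size of the 6 h value was thus that of the gap between CK3 and CK1, and the 2 NaCl samples were not compared as a time course.

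**Figure D2:**
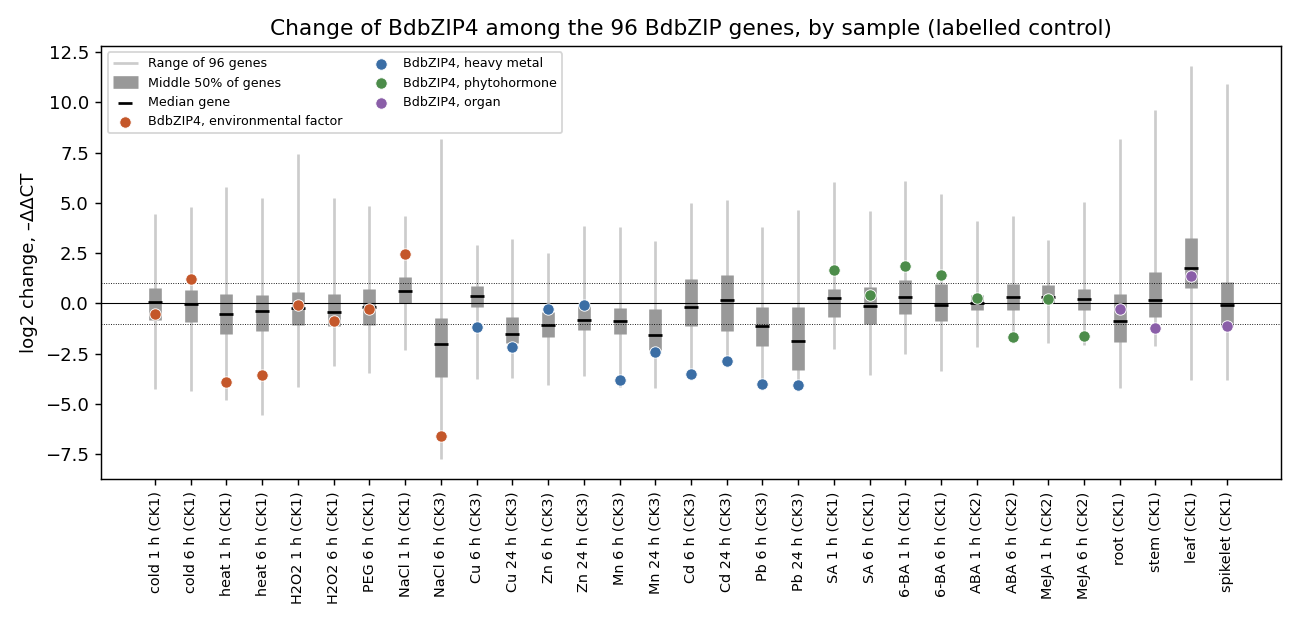
Change of BdbZIP4 (coloured points, log2 –ΔΔCT) among the 96 genes in each of 31 samples, with the labelled control in parentheses, the range (thin line), the middle 50% of genes (thick bar) and the median gene (black dash). Dotted lines mark 2-fold and 0.5-fold. BdbZIP4 lies below the middle 50% in heat, NaCl 6 h, Cu, Mn, Cd, Pb, ABA 6 h, MeJA 6 h and stem, and above it in cold 6 h, NaCl 1 h, Zn, SA 1 h and 6-BA. The organ points use the Ct of the well, whose gene name is uncertain there.

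All 10 metal samples were below CK3 and above CK1. Zn, a micronutrient and a cofactor of many enzymes, was nearest to CK3, with levels of -8.21 at 6 h and -7.99 at 24 h and changes of -0.28 and -0.06. Both Zn changes were inside the well error, while the median gene was at -1.05 and -0.81. In Cu, a cofactor of redox enzymes that is toxic in excess, the levels were -9.11 and -10.12. The Cu changes of -1.18 and -2.19 were the 13th and the 20th lowest of 96, with 14.6% and 72.9% of genes at most 0.5-fold. Relative to the median gene Cu 6 h was at -1.61 and Cu 24 h at -0.65, so at 24 h the value was mostly that of the median gene.

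Mn, Cd and Pb were the metals by which the gene was chosen. Under Mn, an essential cofactor of photosynthetic water splitting, the levels were -11.76 at 6 h and -10.32 at 24 h. The Mn changes were -3.83, the 3rd lowest of 96, and -2.39, the 23rd lowest, with 45.8% and 65.6% of genes at most 0.5-fold. Cd, which has no known nutrient role in land plants, gave levels of -11.42 (Ct 34.66) and -10.81 (Ct 32.85). Its changes of -3.49 and -2.88 were the 3rd lowest and the lowest of 96 genes, in samples where 30.2% of genes were at most 0.5-fold at each time. Pb, likewise not a nutrient, gave levels of -11.95 (Ct 34.84) and -11.98 (Ct 32.68) and changes of -4.02 and -4.05, the lowest and the 4th lowest. At most 0.5-fold were 52.1% and 61.5% of the genes under Pb.

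The amount of BdGAPD moved with several of these metals. BdGAPD had a Ct of 23.24 and 22.04 in Cd and of 22.89 and 20.70 in Pb, against 20.08 in CK3, and of 18.31 and 18.14 in Mn. Without a reference gene BdbZIP4 was at -6.65 and -4.84 in Cd, -6.83 and -4.67 in Pb, and -2.06 and -0.45 in Mn. With the median gene as the reference it was at -2.85 and -2.46 in Cd, -2.33 and -1.59 in Pb, and -2.74 and -0.94 in Mn. All 6 samples were below CK3 on every one of these scales, and the size differed between scales by more than 1.5 times. The part of BdGAPD in these sizes was not tested.

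The direction of the metal values depended on CK3. With BdGAPD as the reference and the 3 controls averaged, all 10 metal samples were at or above the control, by 2.89 and 1.88 in Cu, 3.79 and 4.01 in Zn, 0.24 and 1.68 in Mn, 0.58 and 1.19 in Cd, and 0.05 and 0.02 in Pb. With that control the 6-BA changes were -0.11 and -0.57 and those of SA -0.31 and -1.54, and those of the metals lay above them. With the averaged controls and the median gene as the reference, 4 of the 6 samples of Mn, Cd and Pb were below the control, Mn 6 h at -0.79, Cd at -0.90 and -0.51 and Pb 6 h at -0.38, while Mn 24 h was at 1.01 and Pb 24 h at 0.36. There SA was at 0.92 and -0.30 and 6-BA at 0.42 and 0.77, so the order of metals and hormones depended on the control and the reference together. Heat was lower under both, at -5.89 and -5.54 and at -4.85 and -3.92.

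**Figure D3:**
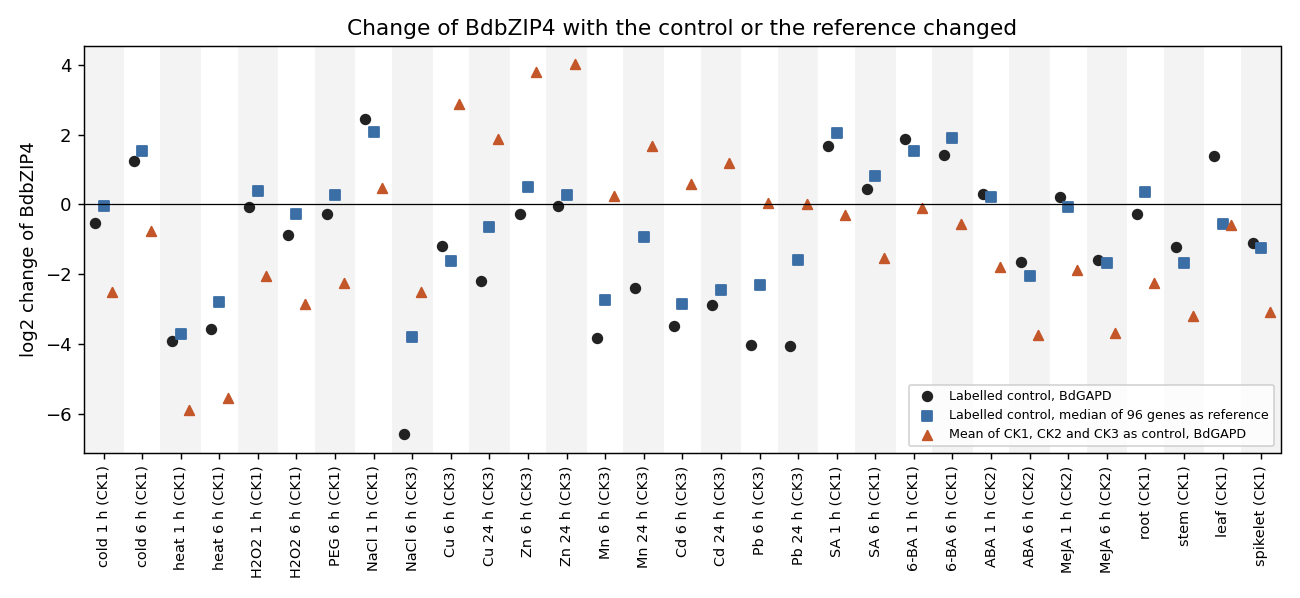
Change of BdbZIP4 (log2) in each of 31 samples with BdGAPD and the labelled control (black circles), with the median of the 96 genes as the reference (blue squares) and with the mean of the 3 controls (orange triangles). The 10 metal triangles lie between 0.02 and 4.01 while the circles lie between -4.05 and -0.06, and all 3 symbols lie below -2 in both heat samples.

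SA and 6-BA were the hormones by which the gene was chosen, and their values were smaller than those of heat or Pb. Under SA, a hormone of defence against pathogens, the level was -12.31 at 1 h and -13.54 at 6 h against -13.98 in CK1. The SA change of 1.67 at 1 h (3.18-fold) was the 12th highest of 96, where 22.9% of genes passed the same threshold, and the change of 0.44 at 6 h was inside the well error. Under 6-BA, a cytokinin that promotes cell division and delays leaf ageing, the levels were -12.11 and -12.57. Its changes of 1.87 (3.66-fold) and 1.41 (2.66-fold) were the 10th and the 14th highest, with 31.2% and 24.0% of genes past 2-fold upward. BdGAPD differed from CK1 by at most 0.34 cycles in these 4 samples, and relative to the median gene the changes were 2.05 and 0.82 in SA and 1.54 and 1.90 in 6-BA.

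ABA and MeJA were not used to choose the gene, and in both BdbZIP4 was low at 6 h. Under ABA, the hormone of water deficit, the level was -13.80 at 1 h (Ct 28.53, BdGAPD 14.73) and -15.74 at 6 h (Ct 33.87, BdGAPD 18.13), against -14.09 in CK2. Under MeJA, a hormone of wounding and insect defence, it was -13.88 at 1 h (Ct 31.59, BdGAPD 17.71) and -15.69 at 6 h (Ct 34.13, BdGAPD 18.44). The 1 h changes of 0.29 and 0.21 were inside the well error. At 6 h the changes were -1.65 in ABA (0.319-fold) and -1.60 in MeJA (0.330-fold), each the 2nd lowest of 96 genes. Only 8.33% of genes were at most 0.5-fold in ABA 6 h, and the same share in MeJA 6 h, so a value this low was uncommon in both samples. The median gene was at 0.31 and 0.21, and relative to it BdbZIP4 was at -2.06 and -1.69. Both levels were also below CK1 and CK3.

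In the organs the well named BdbZIP4 was low, with its raw Ct between 30.80 and 32.28. Whether the organ Ct values of this well belong to BdbZIP4 is uncertain, for the reason given in the next paragraph. Root was at a level of -14.26, stem at -15.20, leaf at -12.60 and spikelet at -15.08. Leaf was highest, over stem by 2.60, over spikelet by 2.48 and over root by 1.66, all larger than the well error. Root differed from stem by 0.94 and from spikelet by 0.82, inside that error but outside the SD of 0.78. Leaf also had the highest Ct of BdGAPD, 19.11 against 16.54 to 17.20 in the others, and most genes of the family were higher in it. Relative to the median gene the order was root at -4.30, leaf at -5.22, spikelet at -5.91 and stem at -6.35, and root exceeded stem by 2.05, spikelet by 1.61 and leaf by 0.92, the last inside the well error. Leaf was thus not the highest organ relative to the median gene. Root and leaf were closer there than the well error, though not closer than the SD of 0.78.

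Against CK1 root had a change of -0.28, stem of -1.22, leaf of 1.38 and spikelet of -1.10. The stem value was the 7th lowest of 96 genes, where 9.38% of genes were at most 0.5-fold. In leaf 71.9% of genes passed 2-fold upward, the median gene was at 1.74, and BdbZIP4 was at -0.56 relative to it. In spikelet 28.1% of genes were at most 0.5-fold. A list of organ values by gene attaches the name BdbZIP4 to another well, whose changes were -0.58 (root), 0.93 (stem), 3.57 (leaf) and -0.78 (spikelet). The ratios to the reference gene that the authors deposited give the well used here nearly those changes. They were -0.56 (root), 0.93 (stem), 3.57 (leaf) and -0.78 (spikelet). Both sources thus give BdbZIP4 organ values other than those from the Ct of this well, which may belong to another gene. The organ list names the well used here BdbZIP66, and it shares only 1 of 96 well names with the list of stress values. The name used here comes from the list of stress values. Under it, genes with identical primers differed by a median of 0.64, against 1.75 under the names of the organ list and 1.27 for other pairs of genes. That comparison used the 27 treated samples and no organ, so it cannot say which gene the organ values belong to.

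Whether BdbZIP4 moved one way between the early and the late sample was asked over the 12 treatments whose 2 times share a control, so that the control cancels. The late level minus the early one was -0.24 ± 1.19 (SD, n = 12 treatments), above 0 in 5 and below 0 in 7, with an exact two-sided sign-flip permutation p of 0.487. No common direction was detected. In 6 of these treatments (heat, SA, 6-BA, Mn, Cd and Pb) the values of both times had served to choose the gene. The p over all 12 is therefore not free of the choice. Over the other 6 the mean was -0.60 ± 1.40 (SD, n = 6), below 0 in 4, with an exact two-sided p of 0.344, where 0.0313 is the smallest possible. The largest steps down were in ABA, -1.94, and MeJA, -1.81, followed by SA at -1.23, and the largest steps up were in cold, 1.77, and Mn, 1.44. The steps in heat, 0.35, Zn, 0.22, and Pb, -0.03, were inside the well error. In the 7 treatments sampled at 1 h and 6 h the mean was -0.59, and in the 5 metals at 6 h and 24 h it was 0.25. These sets differed by -0.84. Heat, SA and 6-BA are in the first set and Mn, Cd and Pb in the second. All 6 served to choose the gene, so these means are a description only.

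**Figure D4:**
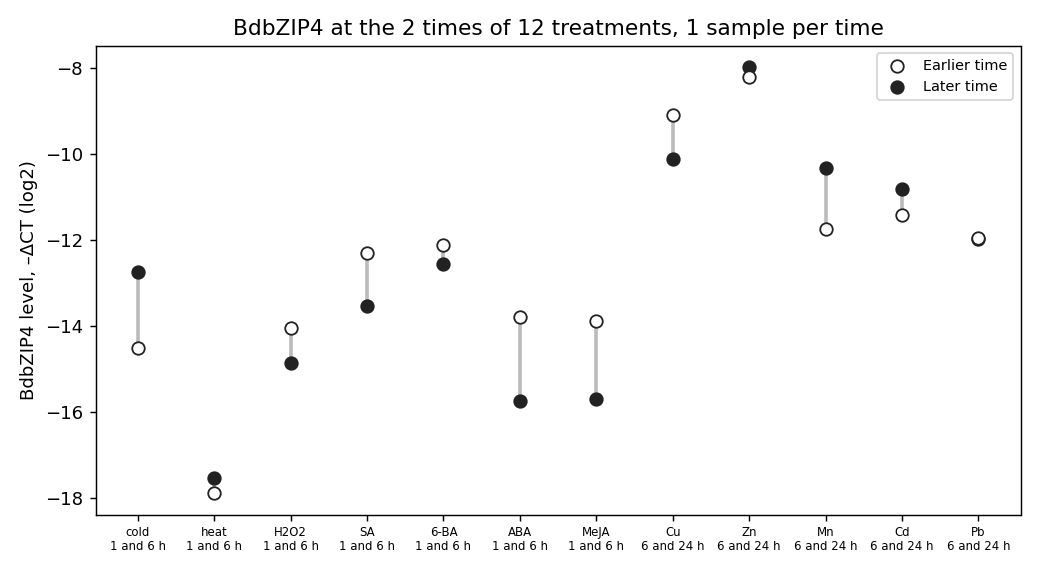
Level of BdbZIP4 (–ΔCT, log2) at the earlier (open) and later (filled) time of 12 treatments, 1 sample per point, joined by a line. The level was lower at the later time in 7 treatments, by most in ABA and MeJA, and higher in 5, by most in cold and Mn.

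The combination by which BdbZIP4 was chosen was rare in the family in this size but not in direction. Of the 96 genes, 22 were below their control in all 8 samples of heat, Mn, Cd and Pb, 34 were above it in all 4 samples of SA and 6-BA, and 7 did both: BdbZIP4, BdbZIP26, BdbZIP45, BdbZIP68, BdbZIP69, BdbZIP75 and BdbZIP77. At most 0.5-fold in all 8 were 2 genes, and of these BdbZIP4 alone was above 0 in all 4. These counts follow from the choice and carry no test. BdbZIP26, BdbZIP45, BdbZIP69, BdbZIP75 and BdbZIP77 are named because they complete this count, after their values were seen.

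The genes whose level ran most like that of BdbZIP4 were BdbZIP16 (Pearson r = 0.67), BdbZIP23 (0.61), BdbZIP68 (0.61), BdbZIP59 (0.60) and BdbZIP61 (0.47). The measure was the level relative to the median gene of each sample, over 34 samples that share controls and, within a sample, the same cDNA. Over all 95 other genes the median r was -0.19, and 4 genes were above 0.5. BdbZIP16 shared the low heat values, with changes of -4.10 and -5.54, and the high CK3. BdbZIP23 had heat changes of -1.05 and -0.56 and a median change of -2.75 over the 6 samples of Mn, Cd and Pb. In BdbZIP59 heat was at -0.71 and -4.21, and in BdbZIP61 at -3.14 and -3.19. BdbZIP68 was the only one of the 5 with a median over 1 in SA and 6-BA, 1.90, and its heat changes were -1.34 and -0.93. BdbZIP59 and BdbZIP68 reached Ct values of 36.78 and 35.65. When the 2 heat samples were left out, r was 0.45 for BdbZIP16, 0.69 for BdbZIP23, 0.39 for BdbZIP68, 0.56 for BdbZIP59 and 0.39 for BdbZIP61, and 2 of the 5 stayed among the first 5.

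**Figure D5:**
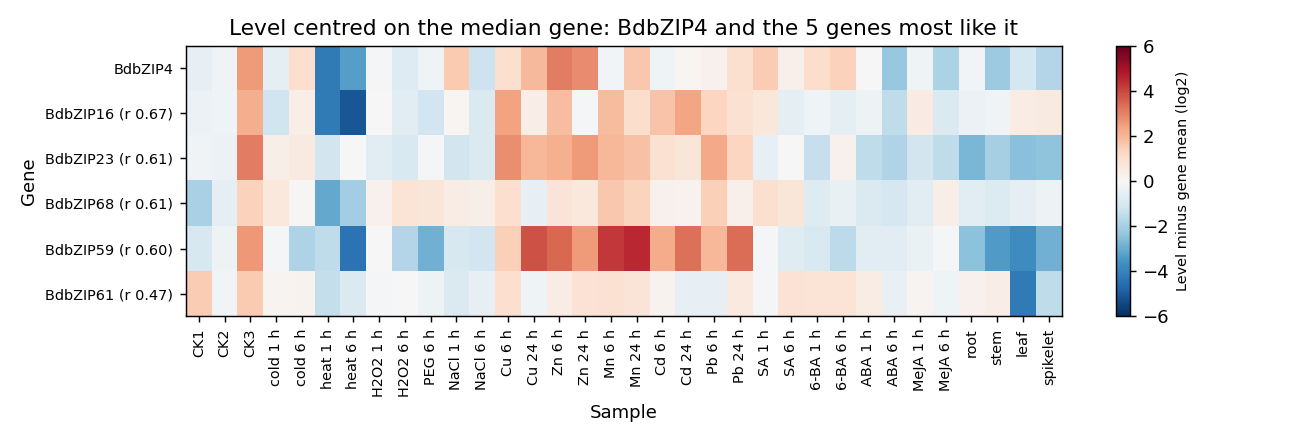
Level relative to the median gene, minus the mean of each gene over 34 samples (log2, red high and blue low), for BdbZIP4 and the 5 genes with the highest Pearson r to it. BdbZIP4 and BdbZIP16 share the blue heat cells and the red CK3 cell, and BdbZIP59 is red in most metal samples.

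The least alike genes were BdbZIP51 (r = -0.71) and BdbZIP17 (r = -0.63). BdbZIP17 was higher in heat, by 2.77 and 2.82, and its level relative to the median gene was -2.95 in CK1 and -12.70 in CK3, the reverse of the order in BdbZIP4. BdbZIP51 was higher in heat by 3.16 and 1.04. It has the primers of BdbZIP50, so its wells cannot be assigned to 1 gene. BdbZIP50 had an r of -0.07 with BdbZIP4, so the same primers did not repeat the r of -0.71. The changes of BdbZIP50 and BdbZIP51 differed by a median of 2.27. BdbZIP51 and BdbZIP17 both reached Ct values over 35, up to 39.50 in BdbZIP17.

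The other 14 genes without an intron had a median r of -0.44 with BdbZIP4 and a highest r of 0.19, and 0 of them were among the 5 most alike. Of the 15, BdbZIP4 included, 6 were at most 0.5-fold in heat at each time, beside 37.5% and 34.4% of all genes. At least 2-fold higher were 2 at each time, beside 19.8% and 18.8% of all genes, with medians of -0.50 and -0.43 beside -0.53 and -0.37 for all genes. Besides BdbZIP4, BdbZIP66 alone was at most 0.5-fold in both heat samples, at -2.61 and -2.22, and in at least 4 of the 6 samples of Mn, Cd and Pb, with 5 of 6. BdbZIP66 is named here by the list of stress values, while the organ list gives that name to the BdbZIP4 well. BdbZIP54 was the only one at least 2-fold higher in both heat samples, by 1.87 and 2.28. Among the treatments that did not serve to choose the gene, BdbZIP4 was the lowest of the 15 in ABA 6 h and MeJA 6 h, changes against CK2. Against CK1 it was highest in NaCl 1 h, and against CK3 lowest in NaCl 6 h. By the Ct of its well it was also lowest in stem against CK1. The deposited ratios and the organ list both give BdbZIP4 a stem change of 0.93, so that rank is uncertain. The levels of CK1 and CK3 had entered the choice, so these last values are not independent of it.

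A second deposited table, of ratios to the reference gene, gives other values for many of these samples. For BdbZIP4 it equalled 2 to the power of –ΔCT within 0.1 (log2) in 8 of 34 samples, namely the 3 controls, both Mn and both Pb samples and Cd 6 h. In 16 treated samples, all those set against CK1 or CK2, the change in that table equalled the raw rise of the BdbZIP4 Ct over its control, with no subtraction of BdGAPD and with a higher Ct counted as more transcript. There heat was at 3.67 and 3.74, ABA 6 h at 4.06 and MeJA 6 h at 4.32. The sign was opposite to that of –ΔΔCT in 14 of 31 samples and the same in 17. Directions in this text follow the Ct table, in which a higher Ct is less template.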

How the data were processed

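qPCR of 96 BdbZIP genes and BdGAPD was analysed in 34 of 35 samples, grouped by their labels. The authors deposited Ct values, 1 per well and sample, without normalization; the labels state 3 qPCR repeats, and how they were combined is not given in the sources used here. The authors also deposited a ratio to the reference gene and a ratio (fold change) of treated to control samples; the latter served only to name the wells, since all 28 values of the BdbZIP4 well equalled those listed for that gene and it shared 0 with any other. The gene and the lists were chosen with earlier results of these data known.

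–ΔCT against BdGAPD, –ΔΔCT against the labelled control and 2-fold thresholds were computed here, with no filter. The named genes were BdbZIP4, BdGAPD, the 5 most and 2 least alike genes, and intronless genes past 2-fold in heat by a fixed rule. Alternatives changed the control, the reference, the table, the threshold, the treatments and the measure of likeness. Ct holds no count of molecules, so depth is unknown. Simulated Ct values with known changes were used to test the arithmetic. Python 3.11.15, numpy 2.4.6, pandas 2.3.3 and scipy 1.17.1 were used.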

Additional observations from a re-analysis of the deposited data

How the results depend on the processing

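Of the changes past 2-fold, the mean of the 3 controls reversed those in cold 6 h (-0.75), Cu (2.89 and 1.88), Mn (0.24 and 1.68), Cd (0.58 and 1.19), Pb (0.05 and 0.02), SA 1 h (-0.31), 6-BA (-0.11 and -0.57) and leaf (-0.60). The deposited ratios reversed those in cold 6 h (-1.63), heat (3.67 and 3.74), NaCl 1 h (-0.87), SA 1 h (-1.31), 6-BA (-1.78 and -1.49), ABA 6 h (4.06), MeJA 6 h (4.32) and stem (0.93). The names of the organ list gave the same stem value of 0.93. In all 4 organs their values were nearly those of the deposited ratios, so for the organs these are not separate alternatives. Leaf was at -0.56 with the median of the 96 genes as reference and at -0.11 with the median of genes whose Ct stayed below 35. With the mean of the 3 controls and the median gene together, Cu (0.34 and 1.30), Mn 24 h (1.01), Pb 24 h (0.36) and leaf (-1.68) were reversed. No change that was past 2-fold was reversed without a reference gene. The count of samples at least 2-fold higher was 6, and it was 10 without a reference gene and 1 at 4-fold. The late minus early mean was 0.062 with the median gene as reference, 0.25 in the treatments at 6 h and 24 h, and between -0.42 and -0.09 when each treatment was left out in turn. It was -0.60 over the 6 treatments that did not serve to choose the gene. Of the 5 most alike genes 2 were kept without the heat samples. These last alternatives, and the averaged controls with the median gene, were chosen after seeing the data. Causes of these differences were not tested.

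No paired analysis was possible because the labels give no replicate numbers that groups share; only the times of a treatment were paired. A single change carries the error of 1 BdbZIP4 well, 1 BdGAPD well and their controls, and the heat values also rest on late Ct.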
